A study of Mus musculus with 12 samples.

Results

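The Hox genes of the mouse were followed by RNA-seq in the mucosa of ileum and colon. Members were all genes whose symbol is Hoxa, Hoxb, Hoxc or Hoxd followed by a number only, which gave 39 protein-coding genes of the 53715 genes in the table. On GRCm38 the 11 Hoxa genes lie on chromosome 6, and the 10 Hoxb genes on chromosome 11 between bases 96194316 and 96368256. The 9 Hoxc genes lie on chromosome 15 between bases 102921103 and 103036852, and the 9 Hoxd genes on chromosome 2 between bases 74668310 and 74765142.

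Hox genes encode homeodomain transcription factors that give cells their position along the head-to-tail axis. Within each cluster the genes stand in the order in which they are used along that axis, so that low paralog numbers mark anterior and high paralog numbers posterior regions, and genes with the same number in different clusters are paralogs. In the gut, the caudal factors Cdx1 and Cdx2 act upstream of several Hox genes, the Meis and Pbx proteins of the TALE family bind DNA with Hox proteins, and the most posterior genes are known for their part in the hindgut and rectum.

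The 12 libraries came from C57BL/6J mice, 3 control and 3 Slc39a8-IEC KO for each of ileum and colon, from males aged 8 weeks according to the methods of the study. Controls are Slc39a8-fl/fl in the labels, whereas the methods describe wild-type and Villin-Cre animals mixed with floxed ones. KO mice are Slc39a8-fl/fl:Villin-Cre, and the Villin promoter drives Cre in intestinal epithelial cells, so other mucosal cells keep the metal transporter gene. Whole mucosal RNA was reverse transcribed from oligo-dT primers, and the sources used here do not say whether both tissues came from the same mice.

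Libraries held between 16749138 and 27903083 expected counts, of which between 2267 and 7933 fell on Hox genes. Slc39a8 itself had 5.22 to 8.39 CPM (the counts of a gene relative to the TMM-scaled size of its library) in ileum control, 2.62 to 4.35 in ileum KO, 20.1 to 20.8 in colon control and 7.35 to 11.5 in colon KO, with no overlap between genotypes in either tissue. Its log2 change over both tissues was -1.13 (SE 0.17, adjusted p = 0.38 by edgeR). Fabp6, the ileal bile acid binding protein, had 3360 to 7110 CPM in ileum and 5.76 to 26.8 CPM in colon, and the carbonic anhydrase Car1 had 14900 to 27100 CPM in colon. One ileal library, KO replicate 2, held 2630 CPM of Car1, against 3.4 to 144 CPM in the other 5. The ileal libraries of control replicate 3 and KO replicate 1 stood apart, with 7.14 and 4.89 CPM of smooth muscle actin Acta2 against 398 to 537 CPM in the other 4 ileal libraries. Earlier work on these data named both as low in muscle transcripts after their values were seen, and values without them are given where they change a call or, in control mice, move a fold by over 1.5 times.

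Both tissues carried a Hox profile dominated by the Hoxb cluster. Levels were compared between genes as CPM per kilobase of exon sequence, and by this measure Hoxb genes made up 92.2% ± 5.65 (SD, n = 3) of the summed Hox level in ileum control and 78.0% ± 3.23 in colon control. Values for KO mice were 93.1% ± 4.51 in ileum and 79.0% ± 7.99 in colon. In ileum control the leading genes were Hoxb9 at 16.7 ± 2.57, Hoxb7 at 14.6 ± 1.98 and Hoxb6 at 13.8 ± 0.96 CPM per kb, and the range of Hoxb7 overlapped those of both others. In colon control Hoxb6 led at 28.9 ± 5.01, ahead of Hoxb9 at 21.5 ± 2.17 and Hoxb7 at 14.7 ± 1.46 CPM per kb.

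The other clusters differed between the tissues in which of them came next. Hoxc genes supplied 4.52% ± 3.26 of the summed level in ileum control and 0.888% ± 0.187 in colon control. The ileal share was 6.38%, 6.43% and, in the library low in muscle transcripts, 0.761%. Hoxa genes moved the other way, from 2.11% ± 1.78 in ileum to 12.5% ± 4.73 in colon, and Hoxd genes from 1.18% ± 0.791 to 8.53% ± 1.74. The 12 genes of paralog groups 10 to 13 summed to 0.120 ± 0.105 CPM per kb in ileum control and to 9.75 ± 1.37 CPM per kb in colon control, 0.171% and 7.48% of the total. The 15 genes of groups 4 to 8 made up 68.2% ± 5.16 and 64.5% ± 2.27, a difference within the spread between mice.

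**Figure D1:**
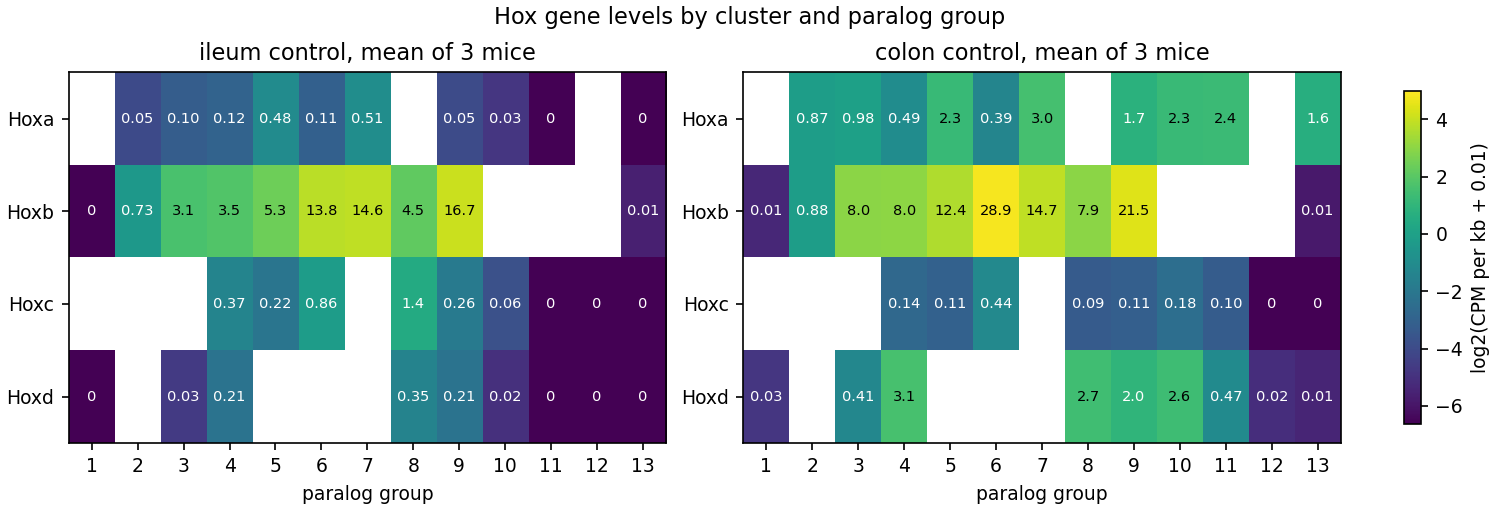
Mean level of each Hox gene in the 3 control mice of ileum (left) and colon (right), by cluster (rows) and paralog group (columns). Colour gives log2(CPM per kb + 0.01) and the printed value CPM per kb, and white squares have no gene or none shown; the Hoxb row is bright in both tissues, while the Hoxa and Hoxd genes of groups 10 and 11 are at or near 0 in ileum and reach 0.471 to 2.61 in colon.

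Of the 39 genes, 28 had enough counts to be tested, and the tests compared colon with ileum within each genotype. In control mice 20 of the 28 were higher in colon at an adjusted p under 0.1 (edgeR), against 16.2% of the 16558 genes tested, and 1 was lower, against 19.6%. Leaving out ileum control replicate 3 raised the lower count to 2. In KO mice 20 were higher (background 17.1%) and 4 lower (background 20%). The 20 higher genes were the same in both genotypes, namely Hoxa2, Hoxa3, Hoxa5, Hoxa7, Hoxa9, Hoxa10, Hoxa11, Hoxa13, Hoxb3 to Hoxb6, Hoxb8, Hoxb9, Hoxd3, Hoxd4 and Hoxd8 to Hoxd11. Some of them passed the count filter through their colonic counts alone, so they could not have been called lower in colon. These were Hoxa11, Hoxa13 and Hoxd11, with no ileal count, and Hoxa2, Hoxa10, Hoxd3 and Hoxd10, with 0 to 3 counts per ileal library. Hoxa9, with 0 to 15 counts per ileal library, and Hoxd9, with 1 to 13, were also among them. Of the genes called lower, Hoxc5, Hoxc8 and Hoxc9 passed the filter through their ileal counts alone, so they could not have been called higher. The median log2 fold change of the 28 was 2.16 in control and 2.01 in KO mice, against 0.02 and 0.01 over all genes tested. In 18 members every one of the 6 colonic libraries lay above all 6 ileal ones, a separation found in 13.4% of all genes. Within control mice all 3 colonic values lay above the ileal ones in 19 members (background 20.3%) and below them in 1 (background 20.4%), and within KO mice in 22 (25.5%) and 1 (24.9%). The RNA is that of whole mucosa, so fewer cells of a type and less RNA per cell cannot be told apart.

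Posterior genes of the Hoxa and Hoxd clusters were detected in colon and nearly or wholly undetected in ileum. Hoxa11, Hoxa13 and Hoxd11, a group known from limb and urogenital as well as hindgut development, had no count in any of the 6 ileal libraries. Hoxa11 (ENSMUSG00000038210.10) had 5.17, 4.56 and 7.01 CPM in the 3 colon control libraries and 4.10, 5.18 and 9.84 CPM in colon KO. Hoxa13 (ENSMUSG00000038203.18), the last gene of its cluster, had 3.28, 1.44 and 7.06 CPM in colon control and 0.565, 0.622 and 7.06 CPM in colon KO. Hoxd11 (ENSMUSG00000042499.13) had 1.33, 3.12 and 1.51 CPM in colon control and 3.06, 2.12 and 2.86 CPM in colon KO.

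Against a floor of 3 counts per ileal library, the level in colon control was at least 33.9-fold higher for Hoxa11, at least 23.9-fold higher for Hoxa13 and at least 12.1-fold higher for Hoxd11. In KO mice the bounds were 43.6-fold, 18.8-fold and 18.4-fold. Adjusted p-values from edgeR were 0.00011, 0.014 and 0.0004 in control and 9.1e-05, 0.017 and 0.00025 in KO mice. These genes were tested because of their colonic counts alone, so no other direction could be called. Hoxa11 overlaps its antisense transcript Hoxa11os in exons, and without strand in the counting the reads of both cannot be told apart. Ileum KO replicate 2, the library with 2630 CPM of Car1, also had 67.3 CPM of the colonic water channel Aqp8 and no count of Hoxa11, Hoxa13 or Hoxd11.

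The neighbours Hoxa10 and Hoxd10 were just detectable in ileum. Hoxa10 had 0.200, 0.0555 and 0 CPM in ileum control and 7.94, 5.85 and 9.09 CPM in colon control, a log2 fold change of 6.59 (SE 0.83, adjusted p = 0.00013 by edgeR). Its pooled ratio was 108 with a 95% counting interval of 41.8 to 398, and in KO mice 105 with an interval of 40.6 to 386. Hoxd10 had 0, 0.111 and 0 CPM in ileum control and 3.53, 7.44 and 3.25 CPM in colon control, a log2 fold change of 6.83 (SE 0.81, adjusted p = 8.8e-05 by edgeR), and its pooled ratio was 134 with an interval of 36.9 to 1120. Such low ileal counts left the folds imprecise. The estimate for Hoxa10 was 7.97 without ileum control replicate 1 and 5.88 without replicate 3, and that for Hoxd10 was 9.62 without replicate 2, which held its 2 counts, and 6.15 without replicate 3. Intervals and floors cover counting error only. For both genes the lowest colonic library stood over 10-fold above the highest ileal one.

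Windows of the 250 bases before the transcription start are shown for genes with no ileal counts (Hoxa11, Hoxa13 and Hoxd11) and for Hoxb genes with counts in every library (Hoxb4 and Hoxb8). They are from RefSeq on GRCm38.p6, which held a window for 22 of the 39 genes. Each is written 5′ to 3′ on the strand of its gene, with capitals for the caudal factor motif TTTATG or its reverse complement CATAAA.
Hoxa11, chr6:52245811-52246060 (minus strand): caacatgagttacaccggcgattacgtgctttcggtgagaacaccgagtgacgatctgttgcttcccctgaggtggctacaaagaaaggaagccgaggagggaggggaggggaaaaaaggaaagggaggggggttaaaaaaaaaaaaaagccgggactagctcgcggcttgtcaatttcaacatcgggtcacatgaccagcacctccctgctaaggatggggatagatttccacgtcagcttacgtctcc
Hoxa13, chr6:52260881-52261130 (minus strand): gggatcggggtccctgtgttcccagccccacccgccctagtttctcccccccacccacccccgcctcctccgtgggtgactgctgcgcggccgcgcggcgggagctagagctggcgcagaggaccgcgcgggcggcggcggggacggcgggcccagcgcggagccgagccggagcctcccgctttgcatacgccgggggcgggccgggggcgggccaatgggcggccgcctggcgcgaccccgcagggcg
Hoxd11, chr2:74679308-74679557 (plus strand): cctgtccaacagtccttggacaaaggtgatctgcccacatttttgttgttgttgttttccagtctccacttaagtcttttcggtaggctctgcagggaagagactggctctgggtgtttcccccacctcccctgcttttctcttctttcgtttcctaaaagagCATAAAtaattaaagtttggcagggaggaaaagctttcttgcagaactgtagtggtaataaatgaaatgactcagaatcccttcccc
Hoxb4, chr11:96318017-96318266 (plus strand): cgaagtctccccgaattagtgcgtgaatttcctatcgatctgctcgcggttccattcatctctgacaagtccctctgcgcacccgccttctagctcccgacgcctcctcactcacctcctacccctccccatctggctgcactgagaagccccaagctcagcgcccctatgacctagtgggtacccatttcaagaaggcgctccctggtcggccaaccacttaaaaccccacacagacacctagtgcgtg
Hoxb8, chr11:96281655-96281904 (plus strand): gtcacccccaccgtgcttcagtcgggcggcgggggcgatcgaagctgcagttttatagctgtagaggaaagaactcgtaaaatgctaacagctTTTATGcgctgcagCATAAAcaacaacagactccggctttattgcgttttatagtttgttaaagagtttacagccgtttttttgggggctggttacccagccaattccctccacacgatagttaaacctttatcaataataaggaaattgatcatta
Hoxb8 held 2 matches, which begin 157 and 143 bases before the start, and the window of Hoxd11 shown held 1, which begins 87 bases before it. The other Hoxd11 window, at chr2:74682073-74682322, held none. No match stood in the windows of Hoxa11, Hoxa13 and Hoxb4. Of the 24 windows of Hox genes, counting a pair for each of Hoxa10 and Hoxd11, 5 (20.8%) held the motif on either strand, against 10.8% of all 32851 promoter windows. The 5 belonged to Hoxa7, Hoxb8, Hoxd3, Hoxd4 and Hoxd11. Base composition varied widely, from 40.4% G and C in Hoxd4 to 80% in Hoxa13, around a median of 58.6% for Hox windows and 52.4% for all windows.

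Anterior and middle Hoxa genes were also higher in colon, from a base that was low in ileum. Hoxa9 rose by 5.08 on the log2 scale in control mice (SE 1.02, adjusted p = 0.0033 by edgeR), from 0.466, 0.333 and 0.0850 CPM to 10.8, 5.47 and 12.6 CPM. Hoxa2 had 0.133, 0.0555 and 0.0850 CPM in ileum control and 1.69, 1.30 and 1.65 CPM in colon control, a change of 4.03 (SE 0.48, adjusted p = 9.5e-05). Hoxa3, a gene of pharyngeal development, changed by 3.28 (SE 0.40), Hoxa7 by 2.57 (SE 0.92) and Hoxa5 by 2.28 (SE 0.89). Within the cluster the estimates ran from 4.03 at Hoxa2 down to 2.05 at Hoxa4 and up to 6.59 at Hoxa10. Hoxa4, with SE 0.88 and adjusted p = 0.11, was not called. Without both low-muscle libraries its estimate was 1.37 (SE 0.74, adjusted p = 0.18 by edgeR). Hoxa5 had adjusted p = 0.079 and lost its call without any one of 4 libraries by edgeR. Its value was 1.53 (adjusted p = 0.28) without colon control replicate 3, 1.66 (0.11) without ileum control replicate 3, 2.37 (0.13) without ileum control replicate 1 and 2.27 (0.11) without colon KO replicate 2. Hoxa7 lost its call without any one of ileum control replicate 1 or colon control replicates 1 and 3, with adjusted p of 0.11 to 0.12. Without ileum control replicate 2 the estimates were 3.15 for Hoxa5 and 3.62 for Hoxa7, and without both low-muscle libraries 1.66 (SE 0.55) and 1.96 (SE 0.62), each of them called.

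All 6 tested Hoxd genes were higher in colon in both genotypes. Hoxd4 had 0.799, 0.833 and 0.212 CPM in ileum control and 9.16, 10.7 and 7.16 CPM in colon control, a log2 fold change of 3.91 (SE 0.62, adjusted p = 0.0007 by edgeR). Hoxd8 changed by 2.95 (SE 0.76) and Hoxd9 by 3.31 (SE 0.70). Without both libraries low in muscle transcripts they changed by 2.39 (SE 0.28) and 2.70 (SE 0.43), and Hoxd4 by 3.44 (SE 0.31). Hoxd3 changed by 3.74 (SE 0.60), on 2 to 3 counts per ileum control library. Hoxd3 and Hoxd4 share exons with each other and with a transcript that joins them, so the split of reads between both genes is uncertain.

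Hoxb genes showed small steps from a high base. Hoxb3 had 15.2, 10 and 14.7 CPM in ileum control and 34.4, 38.3 and 29.1 CPM in colon control, a log2 fold change of 1.35 (SE 0.30, adjusted p = 0.006 by edgeR). Hoxb4 changed by 1.18 (SE 0.22), Hoxb5 by 1.22 (SE 0.25), Hoxb6 by 1.06 (SE 0.22) and Hoxb8 by 0.81 (SE 0.23). These 5 changes correspond to fitted folds of 1.76 to 2.55, and in each gene the 3 colon control libraries lay above the 3 ileum control ones. Hoxb8 sat at the threshold (adjusted p = 0.1, log2 fold change 0.53) without colon control replicate 2.

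Hoxb7 and Hoxb2 did not show this step. Hoxb7 had 26.0, 21.3 and 20.2 CPM in ileum control and 23.7, 24.4 and 20.2 CPM in colon control, a log2 fold change of 0.02 (SE 0.20, adjusted p = 0.96), and its sign turned in 6 of 25 settings. Hoxb2, a gene of the hindbrain, had a value of 0.29 (SE 0.57, adjusted p = 0.74) and turned sign in 3. Hoxb9, the most abundant Hox gene per kilobase in ileum, had 40.2, 38.2 and 50.5 CPM there and 58.8, 58.4 and 48.9 CPM in colon control, which overlapped. Its log2 fold change was 0.37 (SE 0.13, adjusted p = 0.061 by edgeR) in control mice and 0.66 (SE 0.13, adjusted p = 0.0036) in KO mice. The call in control mice was lost without either of ileum control replicates 1 and 2, colon control replicates 1 and 2, or the colon KO library of replicate 3 (adjusted p of 0.1 to 0.18).

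**Figure D2:**
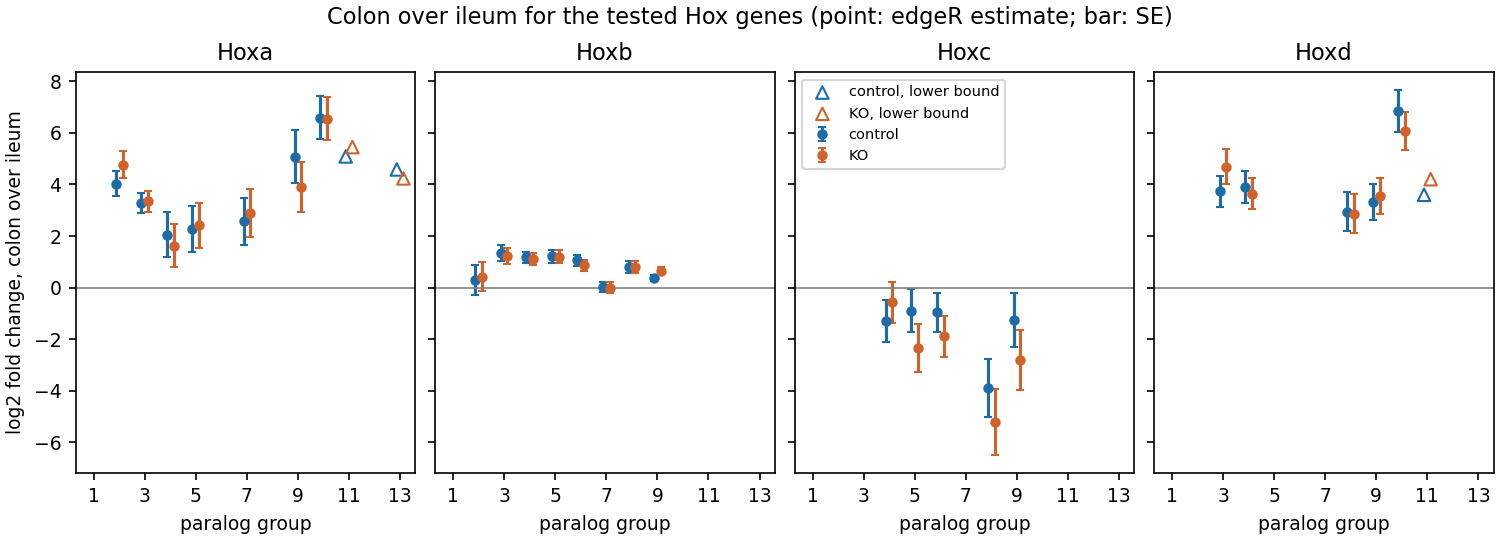
Log2 fold change of colon over ileum for the 28 tested Hox genes by paralog group, 1 panel per cluster, in control (blue) and KO mice (orange). Points are edgeR estimates with SE bars and open triangles are lower bounds for genes with no ileal count; Hoxa and Hoxd genes lie well above 0, Hoxb genes between 0.00 and 1.35, and Hoxc genes below 0.

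Among Hoxc genes, Hoxc8 was lower in colon in both genotypes. With 0 to 8 counts per colonic library it was tested because of its ileal counts alone, so it could not have been called higher. Hoxc8, a gene of the thoracic region, had 6.26, 5.11 and 0.467 CPM in ileum control, 0.298, 4.03 and 4.74 CPM in ileum KO, 0.102, 0.288 and 0.377 CPM in colon control and 0, 0.104 and 0.125 CPM in colon KO. Its log2 fold change was -3.89 (SE 1.11, adjusted p = 0.022 by edgeR) in control and -5.20 (SE 1.27, adjusted p = 0.01) in KO mice. The lowest ileal value in each genotype came from the library low in muscle transcripts. The groups did not overlap within either genotype, but the 0.298 CPM of ileum KO replicate 1 lay below the highest colon control value. Limma-voom gave -3.10 with adjusted p = 0.19 for Hoxc8 in control mice.

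Hoxc5, Hoxc6 and Hoxc9 were called lower in colon in KO mice, with log2 fold changes of -2.34 (SE 0.93), -1.88 (SE 0.79) and -2.82 (SE 1.16) and adjusted p of 0.083, 0.097 and 0.09 by edgeR. In control mice their values were -0.89, -0.96 and -1.24, with adjusted p from 0.38 to 0.45. Hoxc5 and Hoxc9 were also tested because of their ileal counts alone, so neither could have been called higher in colon. The count of 4 in KO mice was not stable, since leaving out 1 library gave 1 to 4 and limma-voom gave 0. It fell to 1 without any one of ileum KO replicates 2 and 3, colon control replicates 1 and 2 or the 3 colon KO replicates, and to 2 without ileum control replicate 1 or colon control replicate 3. Without both libraries low in muscle transcripts 4 Hoxc genes were called lower in each genotype, Hoxc4, Hoxc6, Hoxc8 and Hoxc9 in control and Hoxc5, Hoxc6, Hoxc8 and Hoxc9 in KO mice. Hoxc8 then reached -4.45 (SE 0.48) and -5.71 (SE 0.56), and Hoxc6 -1.47 (SE 0.36) and -2.35 (SE 0.37). In control mice Hoxc4 reached -1.89 (SE 0.51) and Hoxc9 -1.84 (SE 0.62). The same removal left 20 genes higher in colon in control mice and 21 in KO mice, the added gene being Hoxa6.

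The 11 members not tested by edgeR were near the limit of detection. Hoxc12 and Hoxc13 had no count in any library, and Hoxb1, Hoxb13, Hoxd1, Hoxd12 and Hoxd13 never exceeded 6 counts. Hoxc11 had 2 to 6 counts in every colonic library and none in ileum. For Hoxc11 an exact permutation test of colon against ileum, with libraries exchanged within genotype, gave p = 0.005, its smallest possible value. The same p was reached by 22 of the 37 members given this test. The share of all genes that would reach it was not counted, so this number is not read as a result about the members. Hoxc10 had 0 to 9 counts per library and Hoxa6 had 0 to 14. Of the 4 genes of paralog group 13, Hoxa13 alone had 12 to 170 counts in each colonic library.

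The ileal libraries low in muscle transcripts divided the Hox genes sharply. Of 20 members with at least 30 ileal counts, 11 were 4-fold or more lower in both of these libraries than in the other 4 with no overlap, against 7.39% of 16071 genes. All 5 such Hoxc genes, all 3 Hoxd genes and 3 of 4 Hoxa genes were among them, and none of the 8 Hoxb genes. Another 7 lay within 1.5-fold, against 63.5% of all genes. Since the pair was set apart with its values already known, these figures are a description with no test. None of the 20 was 4-fold or more higher in the pair, against 0.666% of all genes.

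Hoxc9 had 0.0425 and 0.0596 CPM in the low-muscle pair against 0.799 to 1.06 CPM in the other 4 libraries, 18.7-fold lower. Hoxc8 was 13.1-fold lower, with 0.467 and 0.298 CPM against 4.03 to 6.26 CPM. Hoxa9 was 11.9-fold lower, Hoxa5 11.6-fold, Hoxd8 11.2-fold and Hoxa7 11-fold. In none of these genes did the libraries overlap. Hoxa3 was the exception in its cluster, with 0.722 and 0.358 CPM against 0.391 to 0.667 CPM.

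Hoxb genes moved far less in the same libraries. Hoxb9 had 50.5 and 42.4 CPM in the low-muscle pair and 38.2 to 44.6 CPM in the other 4, and Hoxb8 had 14.7 and 13.5 CPM against 9.92 to 12.6 CPM. Hoxb4 overlapped, with 8.03 and 8.11 CPM against 6.92 to 11.3 CPM. Hoxb5 was 1.73-fold lower at 9.94 and 9.06 CPM against 14.8 to 19.6 CPM, and Hoxb2 was 3.19-fold lower, the most within the cluster. Hoxb6 and Hoxb7 were 1.35-fold and 1.34-fold lower, also without overlap. The Hoxb share of the summed Hox level was 98.6% and 98.2% in the pair and 87.8% to 91.3% in the other 4 libraries.

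Markers of several cell types moved with this division. All 6 smooth muscle markers were 4-fold or more lower without overlap, with a summed level of 20.2 to 34.2 CPM against 1810 to 2640 CPM, as were 5 of 6 fibroblast markers (38.3 to 39 against 271 to 529 CPM) and 6 of 7 markers of enteric neurons and glia (6.03 to 7.63 against 13.7 to 20.6 CPM). Of the latter, Elavl4 and Sox10 were at 0 in ileum KO replicate 1. None of the 6 epithelial markers was, at 16000 to 17100 CPM against 17800 to 20500 CPM, nor either endothelial marker, at 6.38 to 7.78 against 2.86 to 7.0 CPM. The 4 immune markers went both ways. Jchain of plasma cells had 104 and 91.1 CPM against 437 to 811 CPM and made up most of their sum of 143 to 153 against 479 to 870 CPM, while Cd79a of B cells was higher, at 12.7 and 13.8 against 0.599 to 3.36 CPM. The part of these cells in the Hox values was not tested. In colon, the smooth muscle markers summed to 2540 to 3950 CPM, near or above the level in the 4 other ileal libraries, and the fibroblast markers to 261 to 535 CPM. Other lists differed between the tissues beside the Hox genes. Epithelial markers summed to 7940 to 9180 CPM in colon and 16000 to 20500 CPM in ileum, markers of enteric neurons and glia to 16.8 to 39.7 CPM against 13.7 to 20.6 CPM in the 4 other ileal libraries, and immune markers to 168 to 345 CPM against 479 to 870 CPM in the same 4. Their part in the tissue differences was not tested.

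**Figure D3:**
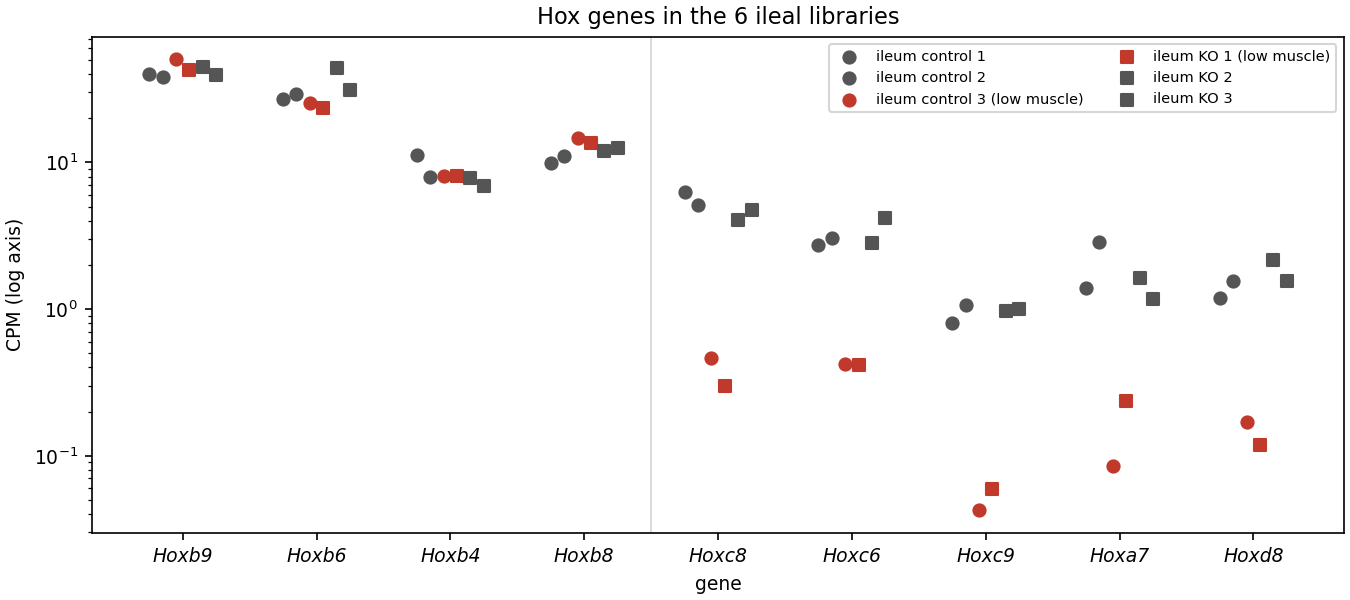
CPM of 9 Hox genes (log axis) in the 6 ileal libraries, circles for control and squares for KO mice, with the low-muscle libraries in red. The means of the 4 Hoxb genes at the left differ by less than 1.5-fold between red and other libraries, and the 5 genes of the other clusters are 7.58-fold to 18.7-fold lower in the mean of both red libraries.

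The colonic libraries differed among themselves in most Hoxa genes. Hoxa13 reached 7.06 CPM in replicate 3 of each genotype, against 0.565 to 3.28 CPM in the other 4 libraries. Hoxa9 followed, with 12.6 and 14.4 CPM against 2.33 to 10.8 CPM, and so did Hoxa10, with 9.09 and 11.2 CPM against 3.16 to 7.94 CPM. Hoxa11 had 7.01 and 9.84 CPM in these libraries and 4.10 to 5.18 CPM in the others. Of the middle genes, Hoxa5 had 7.67 and 7.01 CPM against 2.59 to 3.83 CPM, and Hoxa7 9.41 and 15.6 CPM against 2.87 to 9.22 CPM. Hoxa3 had 7.63 and 5.56 CPM against 2.59 to 5.48 CPM, and Hoxa4 1.22 and 1.2 CPM against 0.307 to 0.816 CPM. Hoxa2 overlapped, with 1.65 and 2.12 CPM against 1.08 to 1.69 CPM. Replicates of different mice share only a number, and these libraries were singled out after their values were seen, so no test was made.

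Genes next to Hoxa13 were seen in the same libraries. Evx1, the homeobox gene beyond Hoxa13, had 0.565 and 0.208 CPM there and no count in the other 10 libraries, and the non-coding transcript Hottip had 0.377 and 0.415 CPM and likewise no other count. Hoxa11os had 11.7 and 16.6 CPM against 2.38 to 6.60 CPM in the other colonic libraries. Markers of the colonic epithelium were mixed. Aqp8 had 190 and 167 CPM in both libraries, against 20.5 to 106 CPM in the others. The 106 CPM was in colon control replicate 1, which also followed both in Hoxa13. Slc26a3 had 689 and 535 CPM in both, against 374 to 460 CPM. The other listed markers, Car1, Car4 and Ang4, overlapped, with Car1 at 21500 and 16500 CPM against 14900 to 27100 CPM. The colonic summed level of smooth muscle markers was 2730 and 3440 CPM in both and 2540 to 3950 CPM in the others. Where along the colon each sample was taken was not given in the sources used here, and its part in these values was not tested.

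The tested Hoxd and Hoxb genes did not share this order. Hoxb13, which was not tested, had 1 and 4 counts in the replicate 3 libraries and none in the other colonic ones. Hoxd10 had 3.25 and 4.69 CPM in the replicate 3 libraries against 3.53 to 7.44 CPM in the others, and Hoxd11 had 1.51 and 2.86 CPM against 1.33 to 3.12 CPM. Hoxb9 had 48.9 and 60.4 CPM against 58.4 to 70.7 CPM. The Hoxa share of the summed level was 17.3% and 19.9% in the replicate 3 libraries and 6.11% to 12.5% in the other 4, and the Hoxb share 74.5% and 69.8% against 78.8% to 83.8%.

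**Figure D4:**
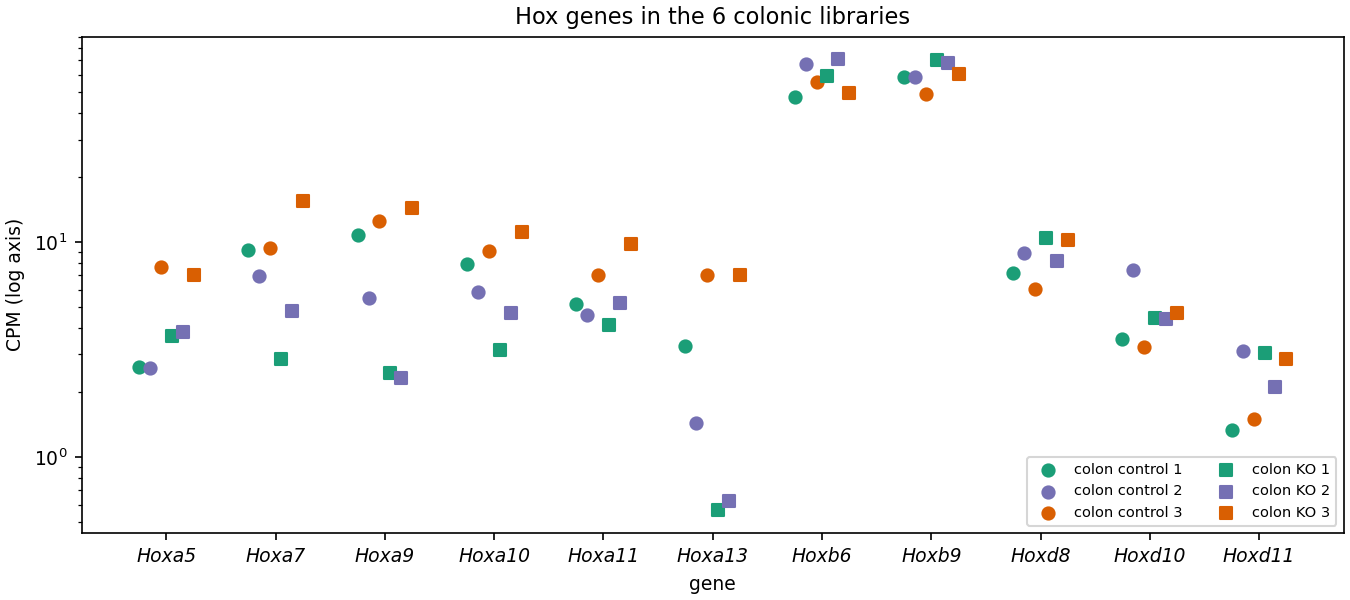
CPM of 11 Hox genes (log axis) in the 6 colonic libraries, circles for control and squares for KO mice, coloured by replicate number. The orange replicate 3 libraries are highest in Hoxa5 to Hoxa13 (7.06 CPM in Hoxa13) and lie within or below the range of the others for the Hoxd genes.

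Genotype was compared next, since the KO removes a manganese and zinc transporter from epithelial cells. No Hox gene was called between KO and control over both tissues, in ileum, in colon or in the difference between tissues, where edgeR called 0.0% of the 16558 genes in each comparison. DESeq2 and limma-voom called no Hox gene either. None of the 28 had an unadjusted p under 0.05, a level reached by 3.87%, 1.52%, 2.33% and 1.02% of all genes in the 4 comparisons. The median log2 change of the 28 was -0.15 over both tissues, -0.01 in ileum and -0.11 in colon, against 0.00 for all genes.

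The smallest p in each comparison belonged to Hoxb4, Hoxd3 and Hoxb9. Hoxb4 had a log2 change of -0.28 over both tissues (SE 0.15, unadjusted p = 0.0738 and adjusted p = 0.998 by edgeR), with 11.3, 8.0 and 8.03 CPM in ileum control and 8.11, 7.89 and 6.92 CPM in ileum KO. Hoxd3 had -1.29 in ileum (SE 0.82, unadjusted p = 0.144 and adjusted p = 1.0 by edgeR). It rests on 0 to 3 counts per library, and all 3 KO values lay below the control values, as in 1.57% of all genes, whereas no Hox gene had all KO values above the control values in ileum, as in 2.13%. Hoxb9 had 0.26 in colon (SE 0.13, unadjusted p = 0.0738 and adjusted p = 1.0 by edgeR) and 0.29 for the difference between tissues (SE 0.19, unadjusted p = 0.15). Its values were 58.8, 58.4 and 48.9 CPM in colon control and 70.7, 68.0 and 60.4 CPM in colon KO. The colonic groups did not overlap for Hoxb9, higher in KO (6.98% of all genes), and for Hoxc6, lower in KO (5.85%), a gene named after its values were seen. Without both libraries low in muscle transcripts, none of 29 Hox genes was called over both tissues by edgeR. Those with an unadjusted p under 0.05 by edgeR were Hoxd8 (0.40, unadjusted p = 0.031, adjusted p = 0.46), Hoxb9 (0.20, 0.044 and 0.49), Hoxb2 (-0.58, 0.047 and 0.5) and Hoxb4 (-0.33, 0.047 and 0.5). The share of all genes at that level was not counted for this setting, so these 4 are not read as a genotype effect.

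The precision of these comparisons differed by cluster. SEs of the genotype effect in ileum were 0.13 to 0.30 for Hoxb3 to Hoxb9, and 0.75 to 0.96 for the Hoxc genes. For the Hoxa genes the range was 0.42 for Hoxa3 to 1.22 for Hoxa10.

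**Figure D5:**
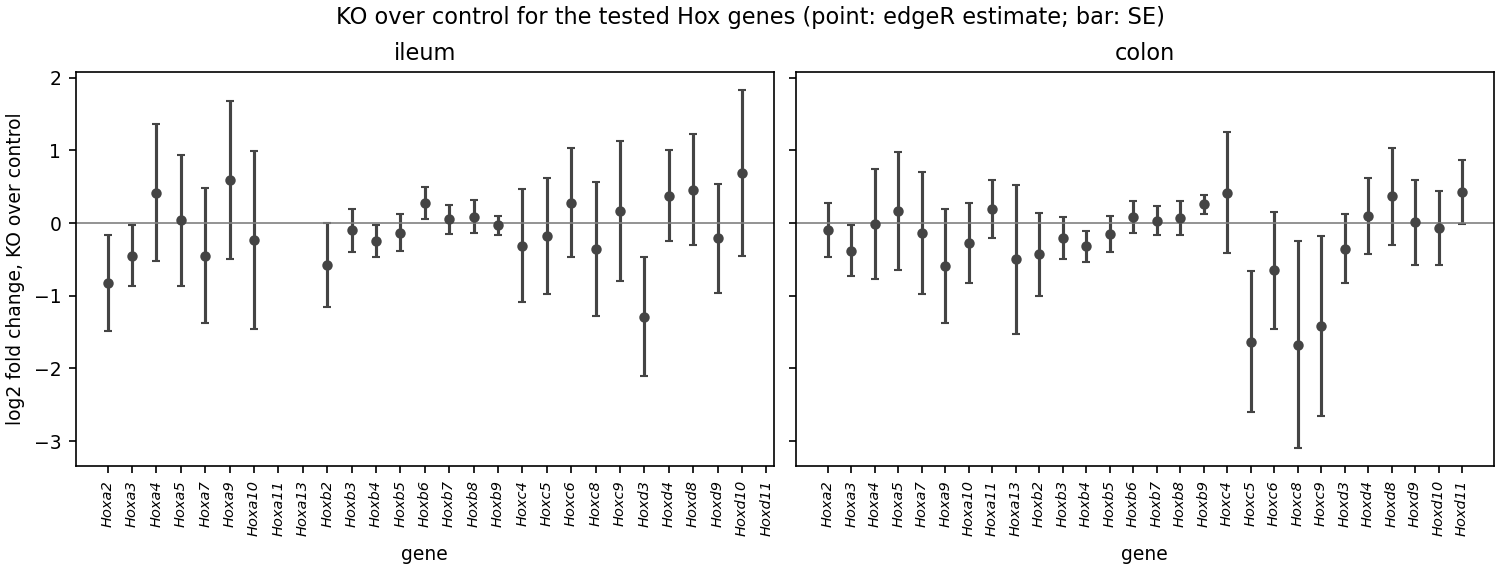
Log2 fold change of KO over control for the 28 tested Hox genes in ileum (left) and colon (right), with SE bars from edgeR. Hoxa11, Hoxa13 and Hoxd11 have no ileal value because all their ileal counts were 0, and the narrowest bar in each panel is the 0.13 of Hoxb9.

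Genes that work with or around the Hox clusters were counted from fixed lists. Over all genes tested, 16.2% were higher and 19.6% lower in colon in control mice, and 17.1% and 20% in KO mice. Of 9 TALE cofactors, 2 were higher and 2 lower in control mice, and 3 higher and 2 lower in KO mice, counts near those shares. Meis3 had a log2 change of 1.40 (SE 0.21), while Pknox1 had -0.76 (SE 0.17) and Pbx4 -1.98 (SE 0.48), all with adjusted p of 0.01 or less by edgeR. Meis1 and Meis2 were not called between tissues, but in the low-muscle pair they had 0.382 and 0.537 CPM and 0.340 and 0.238 CPM, against 4.30 to 5.39 and 6.17 to 7.15 CPM in the other ileal libraries. Meis2 was thus 22.8-fold lower there.

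Of the caudal factors, Cdx1 was higher in colon in control mice, by 0.59 (SE 0.22, adjusted p = 0.068 by edgeR), and Cdx2 had a value of 0.15 (SE 0.26, adjusted p = 0.7). Cdx4 had 1 count in all. Cdx1 was 118 and 119 CPM in the low-muscle pair and 55.2 to 129 CPM in the other ileal libraries. Of 15 Polycomb and trithorax genes, whose products hold Hox clusters silent or active, 3 were higher and 3 lower in control mice and 0 higher and 4 lower in KO mice, against 16.2% and 19.6% of all genes in control mice. Suz12 fell by 0.64 (SE 0.11), Kdm6b fell by 0.52 (SE 0.15), and Ring1 and Rnf2 rose by 0.62 (SE 0.18) and 0.49 (SE 0.15) in control mice.

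Non-coding transcripts of the clusters were mostly higher in colon. Of 13 listed, 11 were in the table and 7 were tested, with 6 higher in colon in control and 7 in KO mice and none lower, against 16.2% and 17.1% of all genes higher. All 7 passed the count filter through their colonic counts alone, so none could have been called lower. Hoxaas3 had a log2 change of 4.63 (SE 0.55) and Hoxaas2 of 4.70 (SE 0.88) in control mice. Hoxb5os had 0 to 0.0666 CPM in the 6 ileal and 0.973 to 1.58 CPM in the 6 colonic libraries, and Hoxa11os had 1 count in ileum. Several overlap Hox exons, so their reads and those of the Hox genes are not independent. Of 6 tested flanking genes 3 were higher and 1 lower in control mice, against the same 16.2% and 19.6%. Ttll6, which flanks Hoxb13, changed by 3.74 (SE 0.74), with 0.0947 to 1.61 CPM in ileum and 7.51 to 12.1 CPM in colon, while Mtx2, beyond Hoxd1, changed by 0.49 (SE 0.17) and Smug1 by 0.37 (SE 0.13). None of these lists had a member called between genotypes.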

How the data were processed

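RNA was extracted from ileal and colonic mucosa of 12 samples, 3 in each of 4 tissue-by-genotype groups assigned from the labels. According to the authors' methods and the labels, oligo-dT primed cDNA was sequenced and reads were aligned with STAR to mm10. The authors deposited expected counts per gene without normalization, while the study's reporting summary names UMI-tools and FeatureCounts, which give whole counts, so the tool behind these values is not settled. Within 0.005, 93.7% of the values were whole. Counts were rounded, and TMM scaling and the quasi-likelihood test of edgeR 4.0.16 (R 4.3.3) were applied to the 16558 genes that passed filterByExpr, with Benjamini-Hochberg adjustment over all of them and a threshold of 0.1. The SE is the size of the log2 fold change divided by the square root of F. All 12 libraries shared 1 estimate of spread, and replicates are separate mice according to the methods.

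Depth was 16749138 to 27903083 counts. Bounds used a floor of 3 counts per library, and counting intervals are exact at 95%. CPM used TMM-scaled library sizes, and lengths are exon bases of GENCODE M21 (GRCm38). Exons of 16 members overlap another gene, and 9 members had counts that were not whole. DESeq2 1.42.0, limma 3.58.1, other scalings and filters, a replicate block and the removal of each library were alternatives. The tests were checked on simulated data. Named were any Hox gene between tissues, the gene with the smallest p between genotypes, and members of fixed lists. Members and lists were chosen with earlier results of these data known. Single values of 1 Hox gene and 1 cofactor are not reported here.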

Additional observations from a re-analysis of the deposited data

How the results depend on the processing

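The number of Hox genes higher in colon stayed between 17 and 22 in control and between 18 and 22 in KO mice under every alternative run, and no Hox gene was called between genotypes under any. The number lower in colon was less stable. In control mice it was 1, and became 0 with limma-voom, 0 with the 6 libraries of the comparison alone, 4 without both ileal libraries low in muscle transcripts, and 1 to 2 when 1 library was left out. In KO mice it was 4, and became 0 with limma-voom, 2 with upper-quartile scaling, 1 with library size only, 1 without a filter beyond 1 count, 2 with at least 1 CPM in 3 libraries, 0 with 6 libraries alone, 1 at an adjusted p under 0.05, and 1 to 4 when 1 library was left out. The cause was not tested. The log2 change of Hoxb2 became -0.20 and that of Hoxb7 -0.07 without both low-muscle libraries, and leaving out 1 library gave -0.20 to 1.03 for Hoxb2 and -0.07 to 0.13 for Hoxb7. Scaling by library size only shifted the median log2 fold change of all genes by 0.22 and gave 4156 genes higher and 2102 lower in colon in control mice, against 2689 and 3251 with TMM.

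Replicate numbers were shared between groups, but in no pair of groups did all 3 same-numbered pairs deviate together with a correlation over 0.1. The correlations were -0.55, 0.404 and -0.694 between ileum control and ileum KO, -0.0534, 0.165 and -0.0798 between ileum and colon of control mice, and 0.192, 0.0512 and 0.251 between ileum and colon of KO mice. The numbers were not taken to pair the samples. With a replicate block 18 Hox genes were higher and 1 lower in colon in control mice, and 20 higher and 1 lower in KO mice. Depth limited the 11 genes not tested by edgeR, and the ileal values of Hoxa10, Hoxd3 and Hoxd10 rest on 0 to 3 counts per library.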
